A study of Danio rerio with 54 samples.

Results

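The CCT chaperonin, also called TRiC, is a double-ring barrel in the cytosol that uses ATP to fold newly made proteins inside a closed chamber. Each ring is built from 8 related subunits, and actin, the tubulins and many proteins of the WD-repeat family depend on it to reach their folded state. The genes followed here are those of the 8 subunits, *tcp1*, *cct2*, *cct3*, *cct4*, *cct5*, *cct6a*, *cct7* and *cct8*, taken by gene name, and all 8 were present among the 15245 genes counted in the series. In yeast, the subunits equivalent to *tcp1*, *cct4*, *cct2* and *cct5* lie side by side in the ring and bind ATP most tightly, and those equivalent to *cct3*, *cct6a*, *cct8* and *cct7* form the other side.

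The samples were single retinas of adult *albino* zebrafish of 6 to 9 months, profiled by 3′ mRNA sequencing, which reads each transcript near its 3′ end. In this animal, intense light kills rods and cones, and Müller glia then divide and give rise to progenitors that replace them. The 0 h retinas came from fish kept in the dark for 5 days and taken before any intense light. Fish of the later groups had the same 5 days of darkness, then 30 min of light at about 100000 lux and continuous light at about 10000 lux until 72 h after its onset, and were taken at 24, 36 and 72 h post light onset (hpl) or, back on the normal day, at 5, 10, 14 and 28 days (dpl). Naïve fish were neither dark-adapted nor lesioned and lived on 14 h of light at 250 lux and 10 h of darkness. An age within the 6 to 9 months is labelled for the naïve fish alone, which the authors call age-matched. Every group held 6 retinas of separate fish. In the time-course, 3 fish per group came from each of 2 experiments, and the sources used here do not give the experiment of the naïve retinas.

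Counted reads per library ran from 1111503 to 4040445 over the time-course, apart from replicate 2 at 5 dpl with 228611, which is 9.06% of the median of the other 5 dpl libraries. That library holds the fewest reads of 7 of the 8 subunits, down to 1 read of *tcp1*, so the subunits' calls, fold changes and group mean at 5 dpl, and the counts of the lists described there, are also given without it. Over the 48 libraries, the median read count ran from 168 for *tcp1* to 1010.5 for *cct6a* among 7 subunits, and was 19.5 for *cct5* (range 3 to 58), the only subunit read this thinly. The labelled tissue was borne out by its markers, as the summed pseudo-counts of 11 photoreceptor genes reached 93991 to 145848 at 0 h, with none of the 11 at 0 throughout that group. In the same retinas 6 lens genes summed to 18.4 to 268 (median 22.6) and 5 skeletal muscle genes to 89.4 to 143. For 2 erythrocyte genes the sums were 54.5 to 305 at 0 h, against 145 to 2787 in naïve retinas.

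The retinas held more transcript of every ring subunit at 24 hpl than at 0 h, had similar means up to 72 hpl, and came down over several steps to 28 dpl. Levels are given as the authors' pseudo-counts, which are read counts scaled toward a common library size. The 8 subunits summed to 2350 ± 309 at 0 h (mean ± SD, n = 6 retinas in each group). The sums for 24, 36 and 72 hpl were 5824 ± 668, 5842 ± 1169 and 6149 ± 492. Those for 5, 10, 14 and 28 dpl were 4665 ± 1412, 3602 ± 314, 3345 ± 295 and 2641 ± 310. At 72 hpl it was 2.62 times the 0 h mean, and at 28 dpl 1.12 times. In order of the mean sums, each group overlapped its neighbour except 14 and 28 dpl. Without the shallow library the 5 dpl mean was 5143 ± 884 (n = 5). In whole retinas, a larger share of cells rich in a transcript and more of it per cell cannot be told apart.

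Marker genes of photoreceptors, dividing cells, immune cells, Müller glia and pigment epithelium also moved over these days. The 11 photoreceptor genes summed to 8517 to 12117 at 24 hpl, against 93991 to 145848 at 0 h. At 10 dpl their sums, 92621 to 108851, overlapped those of 0 h, but single genes did not all do so. There *pde6c* was 5499 to 7529, against 11189 to 14784 at 0 h, and *gnat2* 7103 to 9562, against 11067 to 13228. Likewise *gnat1* was 3338 to 5224, against 5496 to 7360. The other photoreceptor genes overlapped 0 h at 10 dpl. Summed levels of 11 proliferation genes such as *mki67* and *pcna* were 2862 to 3946 at 72 hpl, against 411 to 579 at 0 h, and 389 to 515 at 28 dpl. For 6 microglia and macrophage genes the sums were 354 to 648 at 24 hpl, against a median of 86.1 and a highest value of 114 at 0 h. Of these genes, *spi1b*, *coro1a*, *mpeg1.1* and *lcp1* were higher at 24 hpl without overlap. The ranges of *csf1ra* and *mpeg1.2* overlapped 0 h, and the mean of *mpeg1.2* was lower at 24 hpl (10.5, against 16.6). The 7 Müller glia genes summed to 7980 to 11223 at 72 hpl and 8147 to 12907 at 5 dpl, against 4680 to 6753 at 0 h, whereas their 24 hpl range of 2709 to 5219 overlapped 0 h. These genes did not move as one. At 24 hpl *rlbp1a* was 118 to 228, against 780 to 1063 at 0 h, and *glula* 347 to 782, against 1334 to 2479. In the same groups *slc1a2b* was 299 to 660, against 1257 to 1797. Higher without overlap at 24 hpl were *apoeb* (1197 to 2721, against 782 to 1145), *glulb* (502 to 1412, against 166 to 282) and *gfap* (106 to 146, against 15.6 to 42.6). The *cahz* ranges overlapped. From 0 h to 72 hpl the mean of *apoeb* went from 968 to 4326 and that of *rlbp1a* from 904 to 1804. Means of *gfap*, *glulb* and *cahz* were also higher, whereas *glula* went from 1700 to 896 and *slc1a2b* from 1527 to 1409. At 5 dpl *slc1a2b* reached 8816 in its highest retina, against a median of 2073. For 6 pigment epithelium genes the sums were 1884 to 5123 at 36 hpl and 2804 to 5650 at 72 hpl, against 721 to 1512 at 0 h, and the range of 878 to 3324 at 24 hpl overlapped. The sums of 8 amacrine, ganglion and bipolar cell genes overlapped 0 h at each time of the lesion series, but single genes went opposite ways. At 24 hpl *elavl4* was 2837 to 4145, against 1140 to 1526 at 0 h. In the same groups *rbpms2b* was 316 to 528, against 593 to 1207, and *vsx1* 394 to 699, against 760 to 1061. The other genes of this list overlapped 0 h at 24 hpl. No gene of these 6 lists was at 0 throughout any group. The part of these shifts in the rise of the subunits was not tested.

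**Figure D1:**
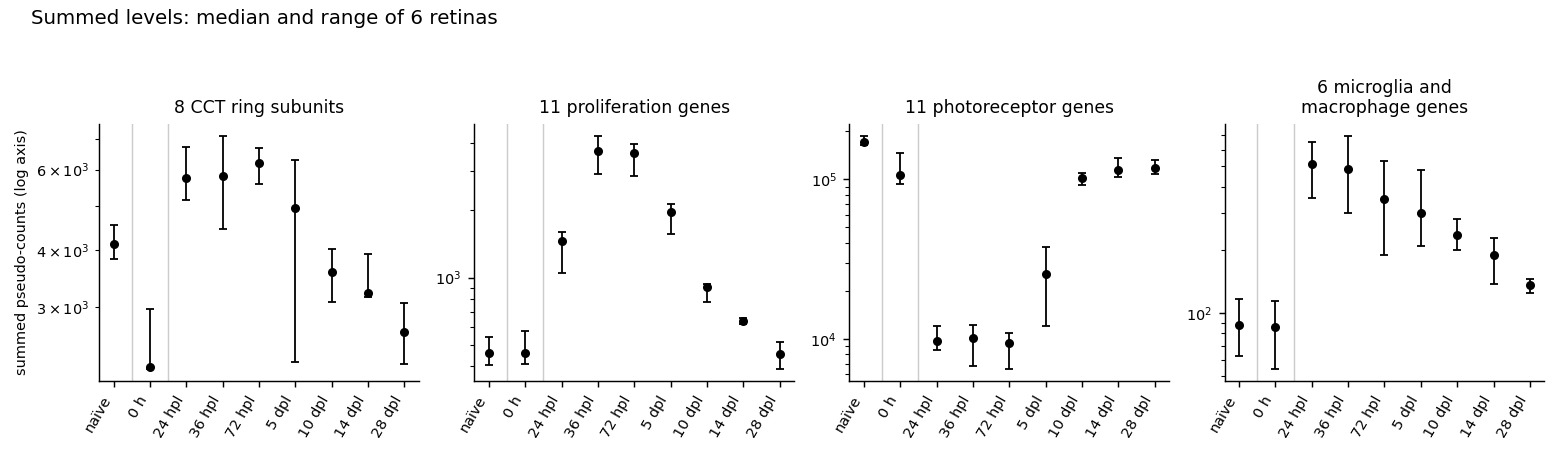
Summed pseudo-counts (log axis) of the 8 CCT ring subunits and of the 11 proliferation, 11 photoreceptor and 6 microglia and macrophage genes, for naïve retinas, 0 h and the 7 later groups. Points are medians and bars the range of 6 retinas. The subunit sum was 5157 to 6719 at 24 hpl, against 2193 to 2974 at 0 h, and the photoreceptor sum was at its lowest from 24 to 72 hpl.

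For the tests, deposited counts were compared with edgeR's quasi-likelihood test, a term for experiment included, over all 13075 genes that passed a filter on low counts, and the threshold for a call was an adjusted p (Benjamini-Hochberg) of 0.05. All 8 subunits passed that filter. All log2 fold changes of the time-course come from this fit, with 0 h as the baseline unless another time is named. All 8 subunits were called higher at 24 hpl, where 19.0% of all genes tested were. All 8 were again called higher at 36 hpl, against 23.6% of all genes, at 72 hpl, against 22.7%, and at 5 dpl, against 17.5%. Without the shallow library all 8 remained called at 5 dpl, against 19.1% of all genes. Their log2 fold changes for 5 dpl were then 1.57 for *tcp1*, 1.31 for *cct2*, 1.23 for *cct4*, 1.19 for *cct3*, 1.07 for *cct7*, 0.93 for *cct6a*, 0.92 for *cct5* (adjusted p = 0.0365) and 0.47 for *cct8* (adjusted p = 0.0165). At 10 dpl 6 of 8 were called higher, against 7.06% of all genes, and at 14 dpl the same 6, against 8.5%. The exceptions at both times were *cct5* and *cct8*. With experiment 1 alone the counts for 5, 10 and 14 dpl were 5, 2 and 1, with experiment 2 alone 6, 5 and 4, and without the experiment term the count at 14 dpl was 3. Fits of 1 experiment held 3 retinas per group, and the shares of all genes called in them are not given here. Fewer retinas and a smaller change of the subunits can therefore not be told apart in counts from 1 experiment, here and below. At 28 dpl edgeR called 0 of 8 (1 at an unadjusted p under 0.05, whereas DESeq2 and limma called 0), against 8.08% of all genes in either direction.

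In size the changes of the subunits were moderate. Their median log2 fold change against 0 h was 1.34, 1.30 and 1.36 at 24, 36 and 72 hpl. For 5, 10, 14 and 28 dpl it was 1.02, 0.65, 0.50 and 0.20, and 1.13 for 5 dpl without the shallow library. The median over all genes tested stayed between −0.10 and −0.00 in these comparisons. The 95th percentile of all genes was 1.63 at 24 hpl and 1.79 at 72 hpl, a level that *tcp1* alone of the 8 passed at both times. These comparisons share the 0 h retinas.

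The subunit genes *tcp1*, *cct4*, *cct2* and *cct5*, of the side that binds ATP tightly in yeast, are described first. The founding member of the family, *tcp1*, encodes the alpha subunit and gave the complex its older name. Its pseudo-count was 57.6 to 124 at 0 h (median 62.6), 177 to 544 at 24 hpl (228), 154 to 508 at 36 hpl (306) and 156 to 472 at 72 hpl (297). It was 19.6 to 424 at 5 dpl (230), 98.6 to 186 at 10 dpl (142), 82.4 to 223 at 14 dpl (123) and 65.8 to 147 at 28 dpl (101). Every retina of 24, 36 and 72 hpl lay above every 0 h retina, whereas from 5 dpl on the ranges overlapped. The lowest 5 dpl value was that of the shallow library, and the next was 125. The log2 fold change against 0 h was 1.84 (SE 0.23, adjusted p = 2.58e-09) at 24 hpl, the largest of the 8 subunits, and the next 2 times gave 1.91 and 1.88. It was 1.44 for 5 dpl, 0.85 (adjusted p = 0.0112) for 10 dpl, 0.81 (adjusted p = 0.0155) for 14 dpl and 0.36 (adjusted p = 0.390) for 28 dpl.

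The retinas of experiment 2 held more *tcp1* than those of experiment 1. At 36 hpl the 3 retinas of experiment 2 had 425 to 508 and those of experiment 1 had 154 to 187, and at 72 hpl 380.4 to 472 and 156 to 214. Averaged over all groups, *tcp1* was higher in experiment 2 by 0.98 on the log2 scale (adjusted p = 3.00e-10). Within experiment 2 the log2 fold change against 0 h was 2.58 at 36 hpl and 2.07 at 5 dpl, and within experiment 1 it was 1.33 and 0.76. The call held in each experiment alone at 24, 36 and 72 hpl, but not in experiment 1 alone at 5, 10 and 14 dpl (adjusted p = 0.0721, 0.174 and 0.337), and at 10 and 14 dpl it was also lost without the experiment term (0.181 and 0.152).

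The delta subunit gene *cct4* reached its highest mean at 72 hpl. Its pseudo-count was 244 to 425 at 0 h (median 347), 769.9 to 1402 at 24 hpl (854), 708 to 1406 at 36 hpl (1105) and 957 to 1414 at 72 hpl (1174). It was 181 to 1193 at 5 dpl (765), 447 to 693 at 10 dpl (659.5), 459 to 553 at 14 dpl (501) and 279 to 495 at 28 dpl (397). The retinas of 24, 36 and 72 hpl and of 10 and 14 dpl all lay above the highest 0 h retina. At 5 dpl the shallow library had the lowest value, below the 0 h range, and the next, 617, lay above it. Relative to 0 h, *cct4* rose by 1.42 (SE 0.18, adjusted p = 1.81e-09), 1.59 and 1.76 on the log2 scale at 24, 36 and 72 hpl. It was still higher by 1.06, 0.77 and 0.54 (adjusted p = 0.0332 for the last) at 5, 10 and 14 dpl, and the value for 28 dpl was 0.15 (adjusted p = 0.662). Experiment 1 alone did not pass at 5 dpl, with a log2 fold change of 0.54 (adjusted p = 0.151), where experiment 2 alone gave 1.59. It did not pass at 10 and 14 dpl either (adjusted p = 0.230 and 0.307). The 14 dpl call was also lost without replicate 5 of 0 h (adjusted p = 0.0525), with scaling to library totals (0.103) and without the experiment term (0.122).

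The beta subunit gene *cct2*, whose human form is mutated in an inherited retinal dystrophy, lay above 0 h up to 14 dpl. Its pseudo-count was 285 to 406 at 0 h (median 315), 855 to 1009.8 at 24 hpl (938), 758 to 1147 at 36 hpl (938) and 835 to 1003 at 72 hpl (940.5). It was 458 to 934 at 5 dpl (842), 454 to 613 at 10 dpl (558), 423 to 623 at 14 dpl (523) and 352 to 487 at 28 dpl (374). At every time from 24 hpl to 14 dpl its retinas lay above the highest 0 h retina, which with all libraries kept held for no other subunit, and without the shallow library also held for *cct4*. Its rise was 2.82-fold at 24 hpl (adjusted p = 2.72e-15), and its log2 fold change was 1.52 at 36 hpl and 1.53 at 72 hpl. Changes of 1.22 for 5 dpl, 0.75 (adjusted p = 9.21e-06) for 10 dpl and 0.70 (adjusted p = 4.33e-05) for 14 dpl followed. For 28 dpl the log2 fold change was 0.23 (SE 0.12, adjusted p = 0.246). The mean over all groups did not differ beyond the test between experiment 2 and experiment 1 (log2 difference 0.06, adjusted p = 0.368).

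The epsilon subunit gene *cct5* gave few reads, and its values scattered widely. Its pseudo-count was 3.82 to 22.2 at 0 h (median 10.5), 7.58 to 35.7 at 24 hpl (24.5), 19.6 to 29.8 at 36 hpl (24.97) and 23.0 to 37.2 at 72 hpl (25.9). It was 13.0 to 33.7 at 5 dpl (22.0), 3.36 to 23.4 at 10 dpl (20.3), 4.96 to 24.8 at 14 dpl (16.2) and 4.71 to 29.9 at 28 dpl (15.6). Only at 72 hpl did all 6 retinas exceed the highest 0 h retina. The fit gave log2 fold changes of 0.97 (SE 0.34, adjusted p = 0.0211) at 24 hpl, 1.24 (adjusted p = 0.00187) at 36 hpl, 1.33 (adjusted p = 0.00106) at 72 hpl and 0.98 (adjusted p = 0.0248) at 5 dpl. At 24 hpl the call was lost without the experiment term (adjusted p = 0.0557) and in experiment 2 alone (0.390), at 36 hpl in experiment 1 alone (0.0776), and at 5 dpl without replicate 5 of 0 h (0.0680), without the experiment term (0.0880) and in either experiment alone. The later log2 fold changes, 0.54, 0.40 and 0.37 for 10, 14 and 28 dpl, missed the threshold, with SEs of 0.35, 0.36 and 0.36. Unlike the other subunits, *cct5* was lower in experiment 2, by 0.71 on the log2 scale (adjusted p = 2.97e-04).

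**Figure D2:**
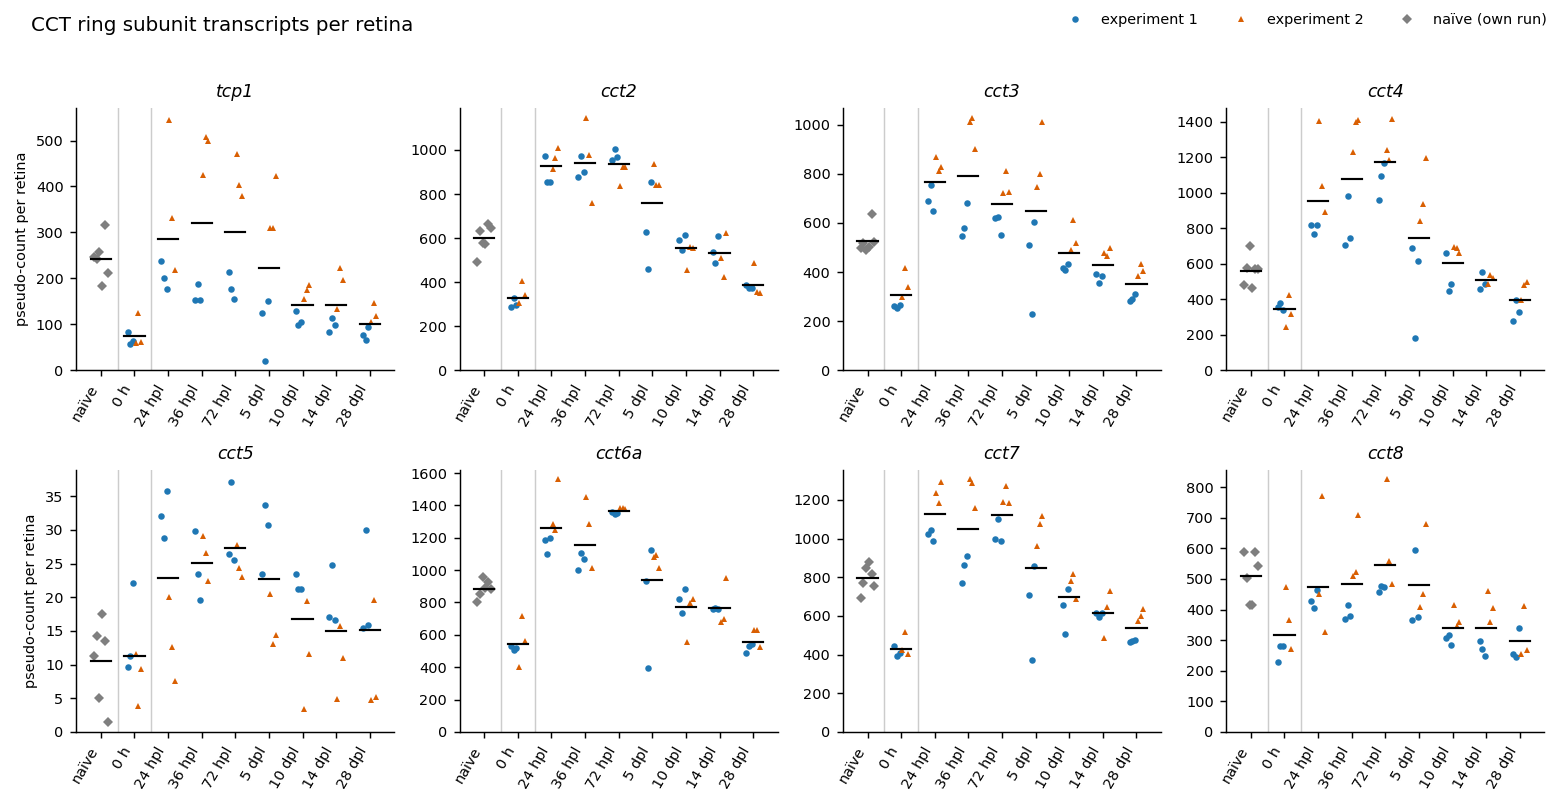
Pseudo-count of each CCT ring subunit in every retina (vertical axis) for naïve fish, 0 h and the 7 later groups. Circles are experiment 1, triangles experiment 2, diamonds naïve retinas, and black lines group means. The words own run in the legend only mark the naïve retinas as a group, since the sources used here do not give their experiment. For *cct2* every retina from 24 hpl to 14 dpl lies above 406, the highest 0 h value, and *tcp1* shows experiment 2 above experiment 1 at 36 and 72 hpl.

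On the other side of the ring, the gamma subunit gene *cct3* had 254 to 417 at 0 h (median 283), 649 to 869 at 24 hpl (783), 545 to 1027 at 36 hpl (791) and 549.8 to 812 at 72 hpl (672). It had 228 to 1012 at 5 dpl (674), 409.7 to 612 at 10 dpl (461), 355 to 497 at 14 dpl (428) and 282 to 433 at 28 dpl (348). The first 3 times after light onset did not overlap 0 h, and neither did 5 dpl once the shallow library was left out (lowest value 512). Increases over 0 h of 1.32 (SE 0.13, adjusted p = 8.19e-13), 1.34 and 1.15 on the log2 scale were fitted for 24, 36 and 72 hpl. The change was 1.06 for 5 dpl, 0.64 (adjusted p = 3.04e-04) for 10 dpl, 0.48 (adjusted p = 0.00788) for 14 dpl and 0.17 (adjusted p = 0.443) for 28 dpl. At 14 dpl the call was lost in each experiment alone (adjusted p = 0.109 and 0.0723) and without the experiment term (0.129).

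The zeta subunit gene *cct6a* is one of a pair in mammals, where the other copy is mainly active in the testis. Its pseudo-count was 402 to 718 at 0 h (median 527), 1097 to 1563 at 24 hpl (1223), 999.7 to 1450 at 36 hpl (1087) and 1347 to 1385 at 72 hpl (1371). It was 392 to 1125 at 5 dpl (1047), 558 to 884 at 10 dpl (810.3), 677 to 949.5 at 14 dpl (760.1) and 490.1 to 630 at 28 dpl (536). The 72 hpl retinas lay closer together, relative to their median, than those of any other subunit and group. From 24 to 72 hpl every retina was above the highest 0 h retina. The log2 fold change was 1.21 (SE 0.14, adjusted p = 1.88e-10) for 24 hpl, 1.08 for 36 hpl and 1.35 for 72 hpl. For 5, 10 and 14 dpl it was 0.80, 0.50 (adjusted p = 0.0107) and 0.50 (adjusted p = 0.0105), and for 28 dpl 0.03. At 10 and 14 dpl neither experiment alone passed.

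The eta subunit gene *cct7* had 393 to 516 at 0 h (median 415), 987 to 1290 at 24 hpl (1115), 768 to 1309 at 36 hpl (1036) and 987 to 1269.8 at 72 hpl (1142). It had 371 to 1115 at 5 dpl (909), 506 to 815 at 10 dpl (713), 485 to 728 at 14 dpl (616) and 465 to 636 at 28 dpl (525). The retinas of 24, 36 and 72 hpl did not overlap those of 0 h. Gains over 0 h of 1.37 (SE 0.13, adjusted p = 1.63e-13), 1.25 and 1.38 on the log2 scale were fitted for 24, 36 and 72 hpl. The change was 0.95 for 5 dpl, 0.67 (adjusted p = 1.00e-04) for 10 dpl, 0.51 (adjusted p = 0.00396) for 14 dpl and 0.28 (adjusted p = 0.157) for 28 dpl. The calls at 10 and 14 dpl were lost in experiment 1 alone (adjusted p = 0.0596 and 0.0861). Leaving out the shallow 5 dpl library from the whole fit turned *cct7* into the 1 subunit called at 28 dpl, with the same log2 fold change of 0.28 (adjusted p = 0.0442).

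The theta subunit gene *cct8*, which promotes assembly of the whole complex in human pluripotent stem cells, changed least of the 8 up to 72 hpl. Its pseudo-count was 228 to 474 at 0 h (median 280.4), 326 to 770.5 at 24 hpl (439), 370.2 to 709 at 36 hpl (461) and 458 to 828 at 72 hpl (481). The later values were 366 to 681 at 5 dpl (431), 283 to 415 at 10 dpl (332), 247 to 459.8 at 14 dpl (328) and 246 to 411 at 28 dpl (263). No group of the time-course was free of overlap with 0 h. Its rise at 24 hpl was 1.50-fold, a log2 fold change of 0.58 (SE 0.16, adjusted p = 0.00295). The values for 36 hpl, 72 hpl and 5 dpl were 0.59 (adjusted p = 0.00178), 0.80 (adjusted p = 4.56e-05) and 0.57 (adjusted p = 0.00521). At 10 and 14 dpl it was 0.09 and 0.08 (SE 0.16 each, adjusted p = 0.808 and 0.790), and at 28 dpl −0.10 (adjusted p = 0.763). Experiment 2 alone did not pass at 24 hpl or 5 dpl (adjusted p = 0.143 and 0.203).

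**Figure D3:**
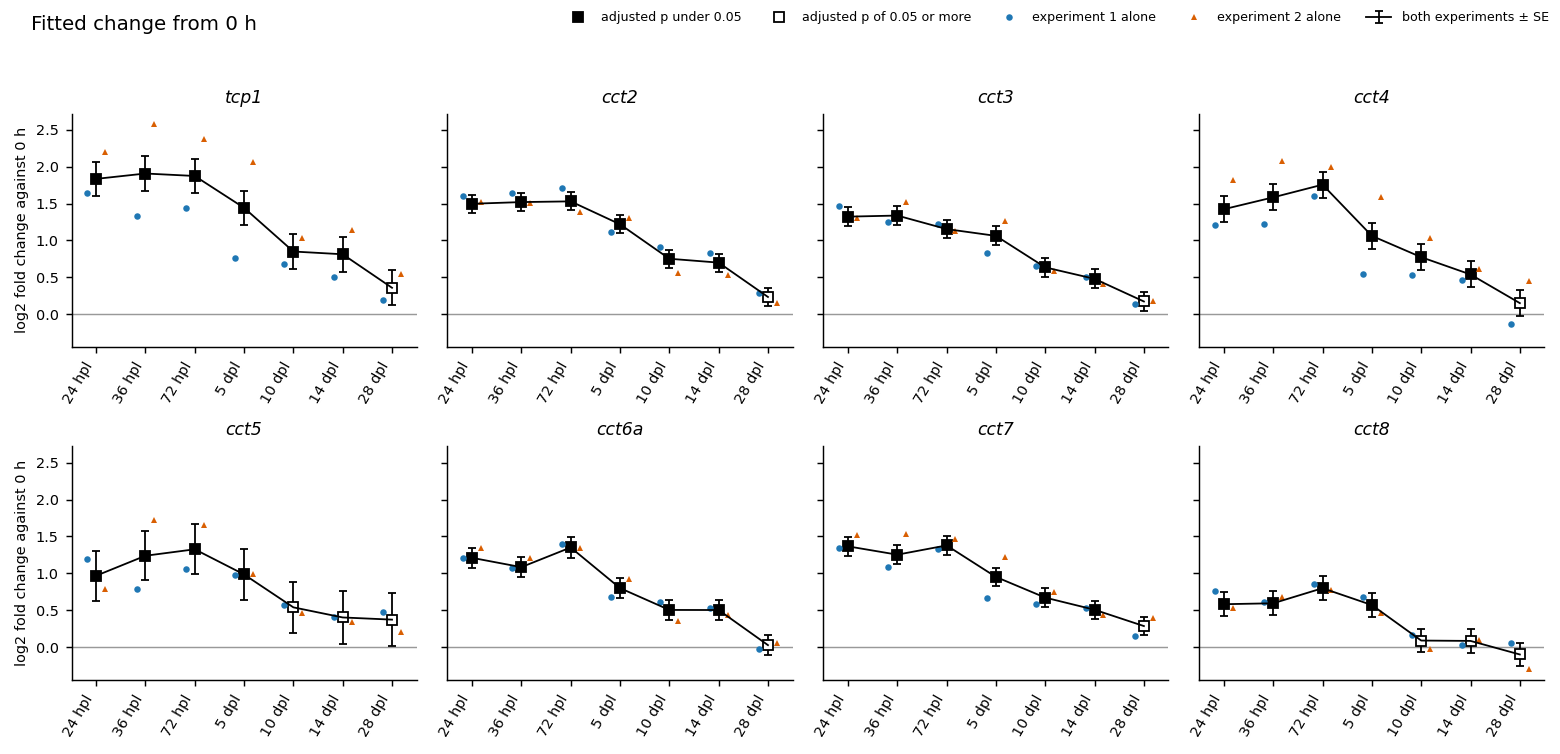
Fitted log2 fold change of each CCT ring subunit against 0 h (vertical axis) at the 7 times after light onset. Squares with bars are the fit over both experiments ± SE, filled where the adjusted p is under 0.05, and circles and triangles are experiments 1 and 2 alone. All 8 squares are filled up to 5 dpl, 6 at 10 and 14 dpl and none at 28 dpl.

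Retinas of 24 hpl and of 36 hpl did not overlap 0 h for 6 of 8 subunits, all but *cct5* and *cct8*, where 10.3% and 12.9% of all genes lay wholly above 0 h. At 72 hpl 7 of 8 did not overlap, all but *cct8*, against 12.5% of all genes. The count was 1 of 8 at 5 dpl (*cct2*), against 4.31%, and 6 of 8 without the shallow library (all but *cct5* and *cct8*), against 9.24%. It was 2 of 8 at 10 dpl and at 14 dpl (*cct2* and *cct4*), against 3.29% and 3.06%. At 28 dpl it was 0 of 8, against 1.69%.

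Between neighbouring times, no further rise passed the test after 24 hpl. From 24 to 36 hpl, from 36 to 72 hpl and from 10 to 14 dpl, edgeR called 0 of 8 subunits, with 0 at an unadjusted p under 0.05 and 0 called by DESeq2 and by limma. Of all genes, 11.4%, 12.6% and 0.0612% were called in these 3 steps. The subunits' changes were −0.13 to 0.27 from 24 to 36 hpl, −0.18 to 0.27 from 36 to 72 hpl and −0.23 to −0.00 from 10 to 14 dpl on the log2 scale. The fall was spread over several steps. At 5 dpl *cct4* had dropped by 0.69 on the log2 scale relative to 72 hpl (adjusted p = 0.00314), *cct6a* by 0.55 (adjusted p = 0.00302) and *cct7* by 0.43 (adjusted p = 0.0116), 3 of 8 called lower where 6.96% of all genes were. Only *cct6a* did not overlap between the groups, with 392 to 1125 at 5 dpl and 1347 to 1385 at 72 hpl, against 2.93% of all genes. Without the shallow library these 3 remained called with changes of −0.53, −0.42 and −0.31, and in experiment 2 alone edgeR called 0 (2 at an unadjusted p under 0.05). The *cct7* call was lost without the experiment term (adjusted p = 0.0966).

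At 10 dpl *cct2* had dropped by 0.47 (adjusted p = 0.00439), *cct3* by 0.43 (adjusted p = 0.0150) and *cct8* by 0.48 (adjusted p = 0.0388) relative to 5 dpl, again 3 of 8, against 6.81% of all genes called lower. This count rested on the libraries used, as it was 6 of 8 without the shallow 5 dpl library, where the adjusted p of *cct8* was 0.0984, 6 of 8 in experiment 2 alone and 0 of 8 in experiment 1 alone. The shares of all genes called in these fits are not given here. At 28 dpl *cct2* alone had dropped relative to 14 dpl, by 0.47 (adjusted p = 0.0419), where 0.489% of all genes were called lower. The retinas of *cct6a* did not overlap in that step, with 490.1 to 630 at 28 dpl and 677 to 949.5 at 14 dpl, against 0.459% of all genes, but its change of −0.48 was not called (adjusted p = 0.0988). The *cct2* call was lost under 6 of 11 alternatives, each experiment alone among them (adjusted p = 0.0861 and 0.790).

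The experiments differed in level for 6 of 8 subunits, which is a share to be read against 54.1% of all genes (7070 genes). Besides *tcp1* and *cct5*, these were *cct3*, *cct4*, *cct8* and *cct7*, higher in experiment 2 by 0.47, 0.39, 0.38 and 0.32 on the log2 scale. Whether the change from 0 h itself differed was tested with an interaction term for the 8 subunits at 7 times. Of these 56 tests, 0 had an adjusted p under 0.05 by edgeR, and 6 had an unadjusted p under 0.05. They were *tcp1* and *cct4* at 36 hpl, *tcp1* at 72 hpl and *tcp1*, *cct4* and *cct7* at 5 dpl, and the lowest adjusted p was 0.0754. No other tool was run on this term.

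The fold changes ran from 1.50 for *cct8* to 3.57 for *tcp1* at 24 hpl, and the subunits' shares of their summed transcript moved with them. These shares are given as a description and compare each subunit only with itself. The share of *cct8* in the pseudo-counts of all 8 was 8.15 ± 2.30%, 8.29 ± 1.38% and 8.84 ± 1.77% for 24, 36 and 72 hpl, against 13.5 ± 3.92% at 0 h (SD, n = 6). It was 11.2 ± 1.96% at 28 dpl. The ranges overlapped, with 5.32 to 12.1% at 24 hpl and 10.4 to 21.3% at 0 h.

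The share of *cct4* went the other way, with 19.1 ± 1.70% at 72 hpl, against 14.6 ± 2.18% at 0 h. For *tcp1* it was 5.20 ± 2.03% at 36 hpl, against 3.14 ± 0.66% at 0 h, and 5.87 ± 0.86% in naïve retinas. The shares of *cct6a* and *cct7* moved little, with group means of 20.05 to 23.0% and 17.9 to 20.3%. The highest *cct8* share of any retina, 26.1%, and the lowest *tcp1* share, 0.862%, both came from the shallow 5 dpl library.

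**Figure D4:**
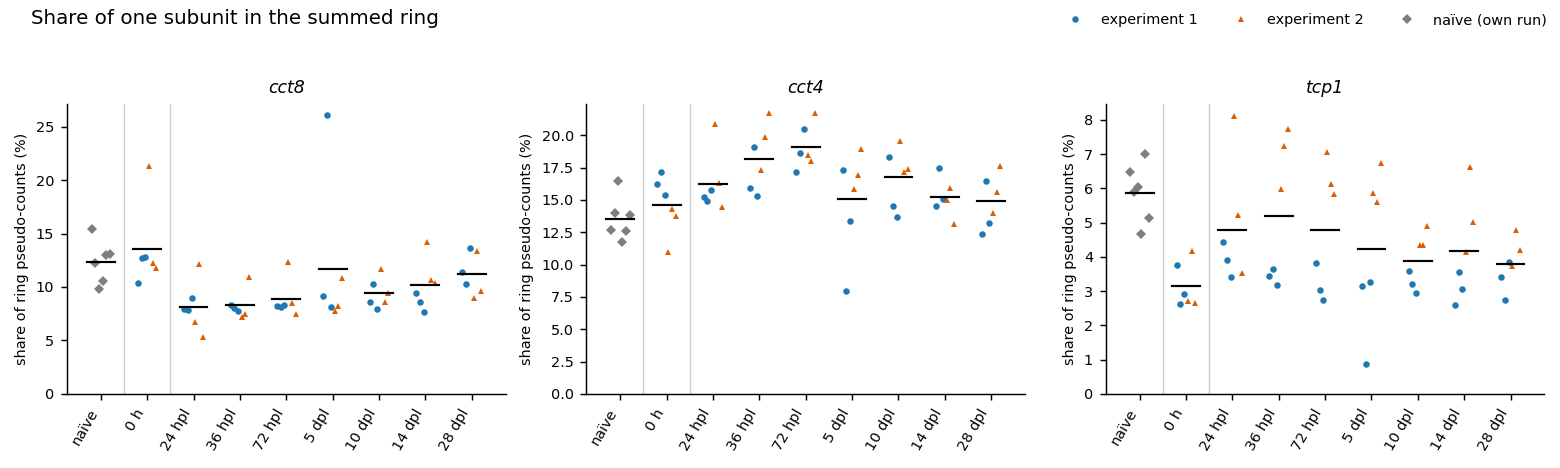
Share (%) of *cct8*, *cct4* and *tcp1* in the summed pseudo-counts of the 8 subunits, per retina, for naïve fish, 0 h and the 7 later groups. Circles are experiment 1, triangles experiment 2, diamonds naïve retinas, and black lines group means. The words own run in the legend only mark the naïve retinas as a group, since their experiment is not given. Mean *cct8* shares were 8.15 to 8.84% from 24 to 72 hpl, against 13.5% at 0 h.

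Dark-adapted and regenerated retinas held less subunit transcript than naïve ones. The 8 subunits summed to 2251 to 3069 at 28 dpl, against 3815 to 4531 in naïve retinas, and to 2193 to 2974 at 0 h, against the same naïve values. These comparisons used limma on log2 of the pseudo-count plus 1 over 11700 genes, since the naïve libraries enter with pseudo-counts only. At 28 dpl 7 of 8 subunits were called lower than in naïve retinas, all but *cct5*, where 17.6% of all genes were called lower. At 0 h the same 7 were called lower than in the same naïve retinas, where 26.9% of all genes were called lower. Values did not overlap for 6 of 8 at 28 dpl, all but *cct4* and *cct5*, and for 6 of 8 at 0 h, all but *cct5* and *cct8*, against 8.22% and 13.8% of all genes.

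The largest of these differences was that of *tcp1*, with 65.8 to 147 at 28 dpl (median 101), against 182 to 317 in naïve retinas (245). Its log2 difference was −1.28 (adjusted p = 6.17e-05) at 28 dpl and −1.72 (adjusted p = 4.60e-07) at 0 h. For *cct2* the values were 352 to 487 at 28 dpl, against 494 to 665 in naïve retinas, with log2 differences of −0.63 (adjusted p = 2.86e-04) at 28 dpl and −0.88 (adjusted p = 2.11e-06) at 0 h. For *cct8* they were 246 to 411 at 28 dpl, against 414 to 587 in naïve retinas, with log2 differences of −0.79 (adjusted p = 7.93e-04) and −0.71 (adjusted p = 9.90e-04).

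The log2 differences of *cct3*, *cct4*, *cct6a* and *cct7* ran from −0.67 for *cct6a* to −0.51 for *cct4* at 28 dpl, and at 0 h from −0.88 for *cct7* to −0.71 for *cct4*. The exception, *cct5*, was 4.71 to 29.9 at 28 dpl, against 1.45 to 17.5 in naïve retinas (log2 difference 0.51, adjusted p = 0.449). A two-sided exact permutation test of 6 against 6 retinas gave p = 0.0022, the smallest it can give, for each subunit without overlap.

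These differences depend on scale. Pseudo-count totals were higher in naïve retinas, and after scaling to equal totals the median over all genes moved to 0.38 at 28 dpl and 0.47 at 0 h, against 0.05 and 0.02 before. The subunits' median moved to −0.26 and −0.29, against −0.61 and −0.76. On that scale, which was chosen after seeing the data, 4 of 8 were still called lower at 28 dpl, with *cct3* (−0.25), *cct7* (−0.22) and *cct4* (−0.16) lost, and 5 of 8 at 0 h, with *cct4* and *cct8* (−0.23 each) lost. Of all 11700 genes, 757 were called lower on that scale at 28 dpl and 1372 at 0 h. The photoreceptor genes summed to 108125 to 132453 at 28 dpl and 93991 to 145848 at 0 h, against 163137 to 187165 in naïve retinas. The Müller glia genes summed to 5352 to 7539 at 28 dpl and 4680 to 6753 at 0 h, against 8430 to 10599 in naïve retinas. Those of amacrine, ganglion and bipolar cells summed to 3903 to 5882 at 28 dpl and 3571 to 5434 at 0 h, against 5992 to 7422 in naïve retinas. Without scaling to equal totals, all 3 of these sums thus lay below the naïve range without overlap, as the subunits' sum did. The pigment epithelium sums at 28 dpl, 1269 to 3229, overlapped the 746 to 4353 of naïve retinas. Proliferation sums at 28 dpl, 389 to 515, overlapped the 406 to 542 of naïve retinas. Microglia and macrophage sums went the other way at 28 dpl, with 125 to 146, against 62.3 to 116 in naïve retinas, without overlap. Each single gene of that list overlapped the naïve range. The means were 52.2, against 25.2, for *spi1b* and 18.5, against 17.6, for *mpeg1.1*. At 0 h the pigment epithelium, proliferation, and microglia and macrophage sums overlapped the naïve range. The pigment epithelium median was 1041 at 0 h, against 3395 in naïve retinas. Single genes did not all go with the sums. At 0 h limma called *rho*, *gngt1*, *gngt2b*, *arr3a*, *prph2b* and *crx* lower than in naïve retinas, but *pde6c* (0.50), *saga* (0.72) and *rcvrna* (0.42) higher. Likewise *elavl4*, *gad1b*, *isl1* and *rbpms2b* were called lower, but *slc17a6b* (1.09) and *pvalb1* (2.34) higher. In the Müller glia list at 0 h, *rlbp1a* and *slc1a2b* were not called, and the other genes were called lower. In the pigment epithelium list *tyr* was not called, and the others were called lower, from −1.92 for *tyrp1b* to −0.89 for *pmela*. Of the proliferation genes *pcna* was called lower (−0.78), but *cdk1* (1.44), *mki67* (1.27), *mcm6* (0.72) and *top2a* (0.71) higher, and the others were not called. At 28 dpl the mean of *glula* was 1783, against 4019 in naïve retinas, and those of *glulb*, *apoeb* and *cahz* were also lower. Means of *rlbp1a* (1322, against 1042), *slc1a2b* (1315, against 1263) and *gfap* were higher at 28 dpl than in naïve retinas, with overlapping ranges. The part of these sums in the differences was not tested. Since the experiment of the naïve retinas is not given, the fit had no term for it, and dark adaptation or lesion and any difference in experiment or age cannot be told apart.

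The partners and clients of the ring were followed in lists. Prefoldin is the jawed complex that takes unfolded actin and tubulin from the ribosome to the ring. All 5 measured prefoldin genes were called higher at 24, 36 and 72 hpl and at 5 dpl, with median log2 fold changes of 1.22, 1.40, 1.15 and 1.05, close in size to those of the subunits. Of all genes, 19.0%, 23.6%, 22.7% and 17.5% were called higher at these times. Without the shallow library all 5 were again called at 5 dpl, against 19.1% of all genes, with a median of 1.097. At 24 hpl *pfdn2* changed by 1.42 (adjusted p = 6.82e-11), *pfdn1* by 1.06, *vbp1* by 1.22, *pfdn6* by 1.24 and *pfdn5* by 1.12. The *pfdn2* level was 217 to 339.8 at 24 hpl, against 78.2 to 127 at 0 h, without overlap. At 10 and 14 dpl 2 of 5 were called higher, where 7.06% and 8.5% of all genes were. At 28 dpl edgeR called 0 of 5 (2 at an unadjusted p under 0.05), against 8.08% of all genes in either direction. The median was 0.15, and no other tool was run on the lists.

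Phosducin-like proteins bind the ring and steer particular clients through it. At 24 hpl *pdcl3* rose by 1.14 (adjusted p = 6.07e-07) and *txndc9* by 0.66 (adjusted p = 0.0412), whereas *pdcl*, which helps assemble G protein beta subunits, fell by 0.29 (adjusted p = 0.0371). At 72 hpl all 3 were called higher, *txndc9* by 1.45, *pdcl3* by 0.56 and *pdcl* by 0.36. Of 5 tubulin cofactors, which pair alpha and beta tubulin after they leave the ring, 3 were called higher at 24 hpl (*tbcb* 0.88, *arl2* 0.73 and *tbca* 0.67) and 2 at 72 hpl (*tbcb* 0.77 and *tbca* 0.56). These counts stand against 19.0% of all genes called higher at 24 hpl and 22.7% at 72 hpl.

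Among the clients, both cytoplasmic actin genes were called higher at each time from 24 hpl to 28 dpl. The log2 fold change of *actb1* was 2.19 for 24 hpl, 2.38 for 72 hpl and 1.24 (adjusted p = 3.80e-09) for 28 dpl, and that of *actb2* 0.93, 1.15 and 0.78. The *actb1* pseudo-count was 712 to 1029 at 28 dpl, against 300.3 to 439 at 0 h. At that time edgeR called none of the subunits, and the difference between the actin genes and the subunits was not tested.

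Tubulin genes split by gene. Of 10 alpha tubulin genes, 5 were called higher and 1 lower at 24 hpl, and 4 were called higher at 72 hpl. Of 6 beta and gamma tubulin genes, 3 were called higher at 24 hpl and 4 at 72 hpl. The share of all genes called higher was 19.0% at 24 hpl and 22.7% at 72 hpl. Called lower at 24 hpl were 2308 of all 13075 genes. The largest changes at 24 hpl were those of *tubb6* (5.64), *tuba1b* (5.14), *tuba8l* (3.15) and *tubb5* (3.08), and *tuba1c* fell by 1.47. At 72 hpl *tubb5* changed by 4.68 and *tuba1b* by 4.63. The tubulin genes are near-identical copies in part, and 3′ reads may be shared between them.

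G protein beta subunits are WD-repeat clients of the ring, and those of rod and cone transducin serve phototransduction. Of 8 such genes, 5 were called lower at 24 hpl, with a list median of −1.77 on the log2 scale, and 5 at 72 hpl, with −1.40. The cone transducin beta gene *gnb3b* fell by 4.38 at 24 hpl and by 5.38 at 72 hpl, *gnb5b* by 2.89 and 3.16, and *gnb1a* by 1.91 and 2.37. The level of *gnb3b* was 459 to 1064 at 72 hpl, against 25185 to 37612 at 0 h. At 10 dpl edgeR called 0 of 8 in either direction (2 at an unadjusted p under 0.05), and the median was −0.03. Among all genes, 923 were called higher and 373 lower at 10 dpl. The photoreceptor sums given above fell and returned over the same times. Of the cell cycle activators of the WD-repeat family, *cdc20* fell by 0.70 (adjusted p = 0.0416) at 24 hpl and rose by 1.34 at 36 hpl, and *fzr1a* fell by 0.74 and 0.60.

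Other chaperones of the cell were set beside the ring. The mitochondrial chaperonin, *hspd1* with its lid *hspe1*, rose by 2.79 and 2.83 at 24 hpl, by 2.13 and 2.22 at 72 hpl and by 1.06 and 1.26 at 10 dpl. The pseudo-count of *hspd1* was 1182 to 1740.0 at 24 hpl, against 181 to 247 at 0 h. At 28 dpl it was 144 to 322, a log2 fold change of −0.03.

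The Hsp70 and Hsp90 relay, which holds unfolded clients before they reach later chaperones, had 11 of 11 genes called higher at 24 hpl and 9 at 72 hpl. Of all genes, 19.0% and 22.7% were called higher at these times. At 5 dpl, when all 8 ring subunits were still called higher, 4 of these 11 were higher and 3 lower, with a median of 0.15. In that comparison 17.5% of all 13075 genes were called higher, and 1868 genes lower. Without the shallow library the relay's counts were the same and its median was 0.19. The lower ones were *hsp90aa1.1* (−1.02), *dnajb1b* (−0.86) and *hsp90aa1.2* (−0.60), and *hsp90ab1* (1.49) and *hspa8* (1.04) were among the higher. Of 3 heat shock factor genes, *hsf1* fell by 0.60 (adjusted p = 1.22e-06) and *hsf2* by 0.44 (adjusted p = 0.0325) at 24 hpl and *hsf4* had −0.51 (adjusted p = 0.636). The distant relatives of ring subunits in the Bardet-Biedl chaperonin, *mkks* and *bbs10*, gave 0 calls by edgeR at any time against 0 h (1 of their 14 tests had an unadjusted p under 0.05), with log2 changes of −0.00 and −0.02 at 24 hpl. Both had low pseudo-counts, with means of 10.6 and 4.25 at 0 h, against 11.3 for *cct5*. The SEs of their log2 changes were 0.40 and 0.57 for 28 dpl, so moderate changes could be missed.

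**Figure D5:**
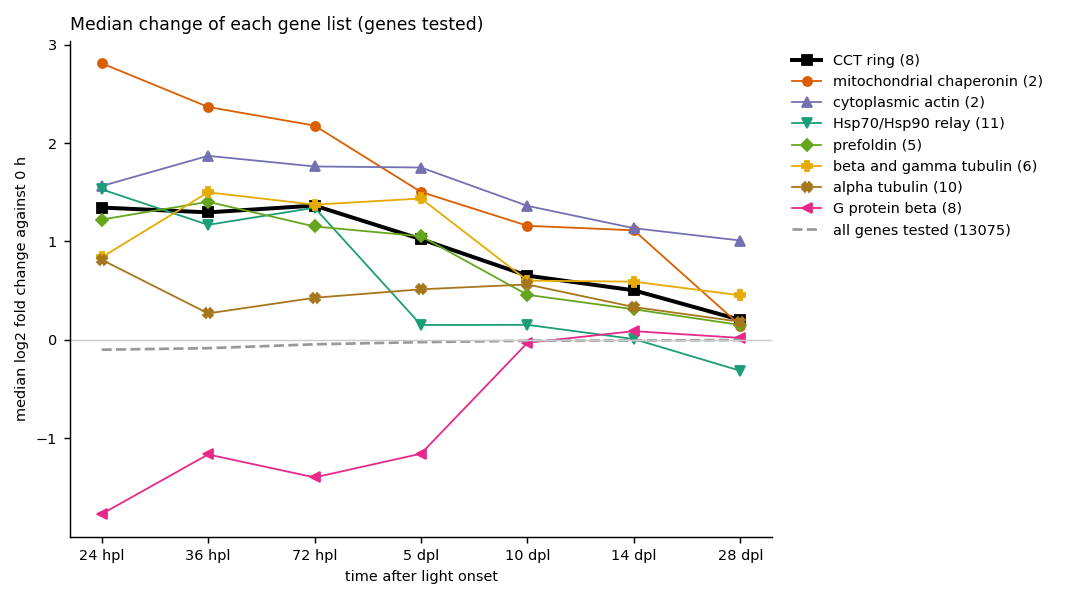
Median log2 fold change against 0 h (vertical axis) of 8 gene lists at the 7 times after light onset, with the number of genes tested in brackets and the median of all genes tested as a dashed line. The CCT ring (black) is at 1.34 at 24 hpl and 1.02 at 5 dpl, where the Hsp70 and Hsp90 relay is at 0.15, and the G protein beta genes are at −1.77 at 24 hpl.

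The genes whose time-course was most like that of the ring were sought among 6321 genes whose mean was at least 20 CPM (the reads of a gene scaled to library size), by Pearson's r with the mean standardized profile of the 8 subunits over the 8 group means. The first 10 were *rps12* (r = 0.998), *rpl7*, *rpl22l1*, *eif5a*, *rpl26*, *rpl21*, *rps3a*, *rpl10*, *rps10* and *rps18* (r = 0.995), that is 9 genes of ribosomal proteins and *eif5a*, a translation factor. The log2 fold change of *rps12* was 1.96 at 24 hpl, 2.27 at 72 hpl and 0.38 at 28 dpl, and that of *eif5a* 1.25, 1.36 and 0.25. These r values rest on 8 points that share their libraries, and 242 genes (3.83%) had an r of at least 0.95. Over the 48 single libraries, 5 of these 10 genes remained among the first 10. Among the subunits themselves, r with the ring profile was highest for *cct2* (0.994) and lowest for *cct8* (0.949). That profile contains each subunit, so these r values are raised by construction and not comparable with those of other genes.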

How the data were processed

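Libraries from 250 ng of RNA per retina were made with the QuantSeq 3′ kit of Lexogen. The submitters' processing notes name STAR, HTSeq and edgeR, with the zebrafish build dR10 (versions not given in the sources used here). The deposited count tables, 7 in number, hold the authors' unnormalised reads per gene for 48 libraries. The deposited pseudo-count table holds, as a signal without whole numbers, counts that the authors scaled with edgeR, for 54 libraries. The authors' own comparison columns (log2 fold change, CPM, likelihood ratio, p-value and FDR) were not used, and 12 gene names turned into dates were left out.

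Genes reaching 5 reads in 6 or more libraries were fitted in 1 edgeR quasi-likelihood model (edgeR 4.0.16, R 4.3.3, TMM scaling, terms for group and experiment), giving 7 comparisons with 0 h and 6 steps between neighbouring times. For the naïve retinas, limma 3.58.1 was fitted to log2(pseudo-count + 1) over 18 libraries, so small changes of low genes are understated. Adjusted p-values are Benjamini-Hochberg over all genes tested. Experiment 1 holds replicates 1 to 3 and experiment 2 replicates 4 to 6, from the names of the raw read files. Alternatives were other scalings and filters, no experiment term, each experiment alone, a replicate block, 2 libraries left out in turn (5 dpl replicate 2 and 0 h replicate 5), a pseudocount of 5, limma and DESeq2 1.42.0. Fits were tested on simulated data. Depth, in reads per library, limits *cct5* most.

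The 8 subunits and 21 other gene lists were chosen with earlier results of these data known. Genes named beside the subunits are up to 4 per list with the smallest adjusted p, counts of 5 or fewer, and the 10 genes most like the ring profile.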

Additional observations from a re-analysis of the deposited data

Results flagged for a closer look

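In 8 of the 72 sets of 6 retinas (8 subunits in 9 groups), 1 retina lay far from the other 5, where chance flags about 1 in 20 such sets. The pseudo-count of *tcp1* in replicate 5 at 0 h was 124, against 57.6 to 82.5 in the others. For *cct2*, replicate 4 at 28 dpl had 487, against 352 to 386. For *cct3*, replicate 5 of the naïve retinas had 635, against 489 to 523. For *cct5*, replicate 2 at 72 hpl had 37.2, against 23.0 to 27.7. For *cct6a*, replicate 2 at 5 dpl, the shallow library, had 392, against 935 to 1125, and replicate 6 at 14 dpl had 949.5, against 677 to 765. For *cct8*, replicate 5 at 24 hpl had 770.5, against 326 to 464, and replicate 4 at 72 hpl had 828, against 458 to 560.2.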

How the results depend on the processing

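Of the subunits' 757 results recomputed under the alternatives, 696 kept direction and side of the threshold, 52 lost the call, 1 gained it and 8 changed sign. Against 0 h and naïve retinas these results include subunits that were not called, such as all 88 for 28 dpl against 0 h. The 696 therefore do not count kept calls alone. At 24, 36 and 72 hpl all but 4 of 264 were kept. The 8 sign changes concern values near 0 that were called in no setting: *cct8* at 10 dpl (−0.0048 with library totals, −0.022 in experiment 2 alone) and at 14 dpl (−0.069 with library totals), and at 28 dpl *cct4* (−0.13 in experiment 1), *cct6a* (−0.073 with library totals, −0.030 in experiment 1, −0.0056 by DESeq2) and *cct8* (0.058 in experiment 1). The number of subunits called was 5, 2 and 1 in experiment 1 alone for 5, 10 and 14 dpl, and 3 at 14 dpl without the experiment term. At 28 dpl it was 0 or 1 with a library left out. For 5 dpl against 72 hpl it was 0 in experiment 2 alone. For 10 against 5 dpl it was 6 with library totals and in experiment 2, 5 by DESeq2, 1 without the experiment term, 0 in experiment 1 and 3 to 6 with a library left out. For 28 against 14 dpl it was 0 without the filter, without the experiment term, in either experiment and by limma, 2 by DESeq2, and 1 to 2 with a library left out. For 28 dpl against naïve retinas it was 4 with equal totals, a scaling chosen after seeing the data, where 757 of 11700 genes were called lower. Where no number of all genes called stands beside such a count, a shift of the subunits and one of all genes cannot be told apart. Of the 10 most alike genes 5 were shared with the other measure. The causes were not tested.

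Same-numbered retinas of different groups did not deviate together (median r −0.0019 over 168 pairs, 16 over 0.1), so the numbers do not pair them. A replicate block turned the 28 against 14 dpl count to 0 (*cct2*, adjusted p = 0.0650) and changed no other count of subunits by over 1.5 times.

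Library totals moved the share of higher calls among all called genes to 61.9% for 24 hpl (51.8% with TMM scaling), 56% for 10 dpl (71.2%), 36.3% for 14 dpl (64.5%) and 37.5% for 28 dpl (58.4%), and to 40.3% for 72 against 36 hpl (53%), 27.5% for 10 against 5 dpl (45.8%) and 51.3% for 28 against 14 dpl (39.0%). The all-gene median moved by 0.11 for 24 hpl, −0.15 for 14 dpl, −0.11 for 28 dpl and −0.12 for 10 against 5 dpl, and the subunits' median was then 1.46 at 24 hpl, 0.35 at 14 dpl and 0.10 at 28 dpl. Without the experiment term 551 genes were higher and 212 lower at 10 dpl, against 923 and 373, 554 and 288 at 14 dpl, against 1111 and 611, and 279 and 210 at 28 dpl, against 617 and 439.

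Few reads limit *cct5* and the shallow 5 dpl library. Single retinas of 3 fish per group and experiment limit values within an experiment, and the naïve retinas have no counts here.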
